A study of Mus musculus with 4 samples.

Results

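Mitosis and spindle genes were described here in resting and activated CD4+ T cells with and without *Cic*, the gene of the transcriptional repressor Capicua. The set comprised 50 genes selected by name for their roles in mitosis, and the selection rule used no measured value, although earlier results of these data were known when the list was made. All 50 were found, each under a locus identifier of its own, among 23339 gene names. *Foxm1* was the only member whose locus carried a further name, *4933413G19Rik*.

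Mitosis begins when cyclin B and its kinase Cdk1 become active. Condensin then compacts the chromosomes, kinesins and their partners build the spindle, and kinetochores attach the chromosomes to it. The spindle checkpoint restrains the ubiquitin ligase APC/C until all chromosomes are attached, after which separase frees the sister chromatids and the cell divides. In resting cells such as naïve T lymphocytes, many of these genes are known to be kept silent by the DREAM complex, which binds a promoter element called the cell cycle genes homology region (CHR). In cycling cells the same element is used by the activators B-MYB and FOXM1, and stimulation through the T-cell receptor and CD28 drives naïve T cells into repeated divisions.

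Splenic CD4+ T cells came from C57BL/6J mice aged 10 to 12 weeks, either *Cic* f/f (WT) or *Cic* f/f with *Cd4*-Cre (cKO). Both genotypes carried the floxed allele, and *Cd4*-Cre, which is active from the double-positive thymocyte stage, removes *Cic* in cells of both the CD4 and the CD8 lineage. Cells were collected unstimulated (day 0) or after 3 days on plate-bound antibodies to CD3 and CD28 (day 3). Each genotype and day had 1 library, 4 in all, so no difference could be set against a spread between replicates and none was tested. The labels call the day 0 cells naïve but name a CD44hi CD62Llo gate, which describes effector or memory cells, whereas the study's methods name a CD44lo CD62Lhi gate.

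Levels are FPKM, which scale fragment counts by transcript length and by the mapped fragments of a library. Ratios are log2 of FPKM plus 0.1, computed where at least 1 library of the pair had an FPKM of 1, and a ratio past 1.5 in either direction was taken as a large difference. The size rule is therefore met by a difference of about 2.83 times. T-cell markers had summed FPKM of 1034 to 1273 over the 4 libraries. *Cic* itself had FPKM of 25.4 and 17.8 in WT and of 24.9 and 12.2 in cKO on days 0 and 3, a value over the whole locus that does not check the deletion. Depth in reads is unknown. From the spacing of weak values, 1 read was worth 0.819 times as much FPKM in the cKO as in the WT library on day 0 and 0.944 times as much on day 3. The number of reads behind a level below 1 is therefore not known.

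Activation was followed by higher levels of nearly the whole set. On day 3, 48 of the 50 genes were above day 0 by the size rule in WT, where 19.0% of all 11440 genes were, and none was below, where 8.84% of all genes were. In cKO 48 of 50 were also above, against 17.3% of 11232 genes, and again none was below, against 6.96%. The median log2 ratio was 4.31 in WT and 4.57 in cKO, beside 0.40 and 0.36 for all genes. The median FPKM of the set went from 2.17 to 42.6 in WT and from 1.59 to 41.8 in cKO. A fold over 8 in both genotypes was reached by 45 genes. The 95th percentile of all genes lay close to that fold, at a log2 ratio of 2.98 in WT and 2.94 in cKO. *Pttg1* and *Smc4* were the exceptions to the size rule in both genotypes.

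Some of these genes passed the level filter only through day 3, 6 of them in WT and 12 in cKO. Among the 44 with an FPKM of at least 1 on both days in WT, 42 were higher by the size rule, beside 16.5% of all genes so filtered. In cKO the number was 36 of 38, beside 14.2%. Fewer dividing cells and less RNA in each dividing cell cannot be told apart in such bulk libraries.

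**Figure D1:**
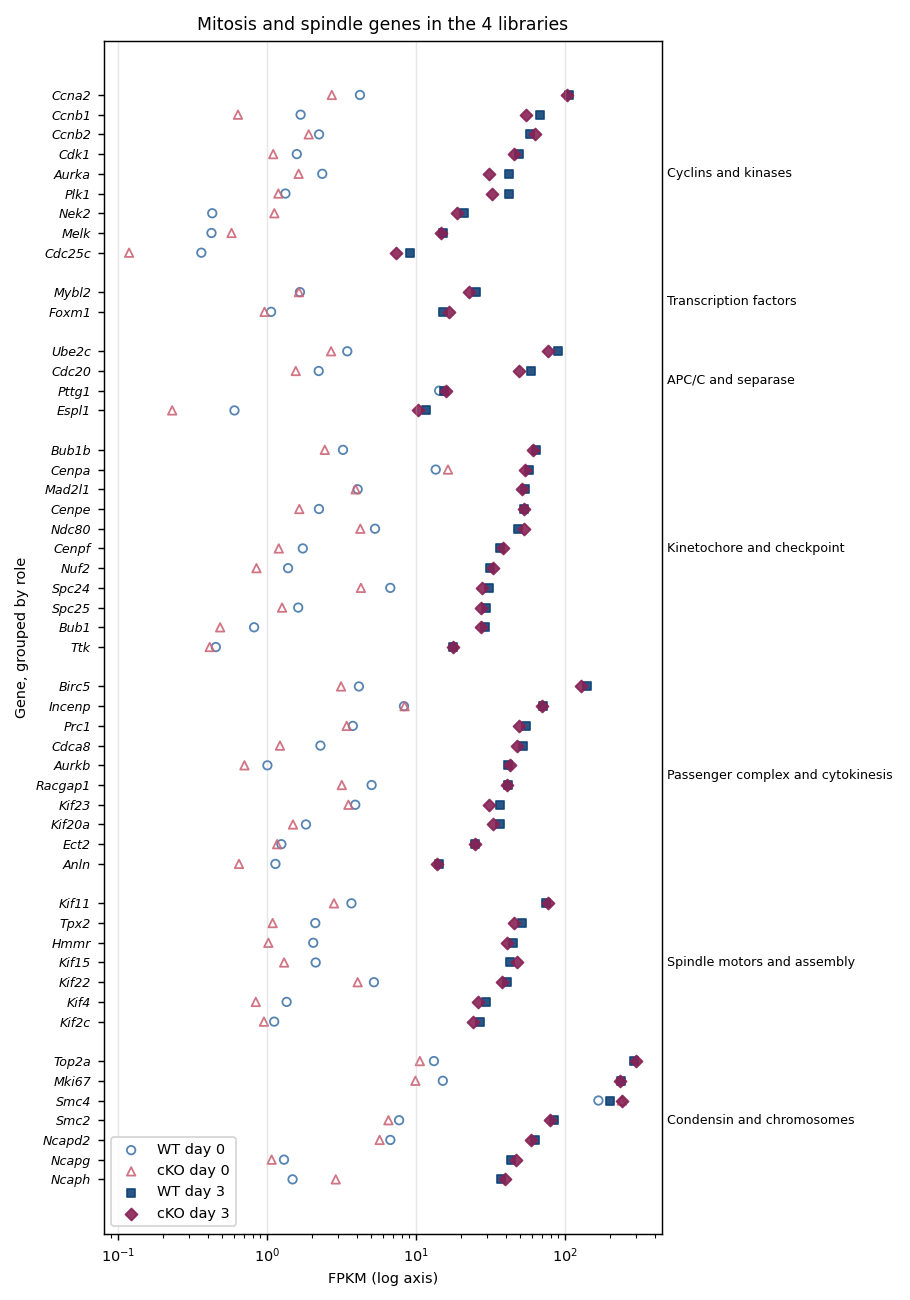
FPKM of the 50 mitosis and spindle genes on a log axis, grouped by role, with open symbols for day 0, filled symbols for day 3, blue for WT and red for cKO. The day 3 symbols of both genotypes lie close together and far to the right of day 0 except for *Pttg1* and *Smc4*.

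The promoters of these genes were searched for the words of the CHR (TTTGAA or TTCGAA), for CCAAT, which is bound by NF-Y and often lies beside it, for an E2F word (TTTNNCGC) and for the octamers TGAATGAA and TGAATGGA bound by Capicua, on both strands. Words were allowed to overlap each other. Of the 50 genes, 41 had a promoter in the RefSeq table for GRCm38.p6, each window holding 250 bases before and 50 after the gene's start. These promoters are shown for *Cdk1*, *Cdc20* and *Kif11* because they hold a CHR within the 100 bases before the start and stand for the kinases, the APC/C and the spindle motors. *Cdk1* lies on the minus strand (chr10:69352913-69353012), *Cdc20* on the minus strand (chr4:118437344-118437443) and *Kif11* on the plus strand (chr19:37376282-37376381). Capitals mark the CHR and CCAAT words, read on either strand, so that TTCAAA and ATTGG are the same words on the opposite strand.
Cdk1: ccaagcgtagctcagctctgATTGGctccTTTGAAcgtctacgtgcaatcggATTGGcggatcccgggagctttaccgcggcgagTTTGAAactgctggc
Cdc20: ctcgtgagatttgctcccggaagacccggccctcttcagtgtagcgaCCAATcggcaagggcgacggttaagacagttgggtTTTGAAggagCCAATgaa
Kif11: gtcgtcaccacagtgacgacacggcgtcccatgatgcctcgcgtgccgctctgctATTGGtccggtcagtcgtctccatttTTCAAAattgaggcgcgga

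In the *Cdk1* promoter 2 CHR words and 2 CCAAT words stand within these 100 bases, and *Cdc20* holds 1 CHR word 18 bases before its start, between its 2 CCAAT words. *Kif11* holds 1 of each. A CHR word was present in 31 of the 41 promoters (75.6%), beside 21.7% of the 27025 genes in the table. From 100 bases before to 50 after the start it was present in 29 (70.7%), beside 9.87%. Among 53 further mitosis genes the share with a CHR in the whole window was 47.2%, and among 23 S-phase genes it was 21.7%. CCAAT was found in 30 of the whole windows of the set (73.2%), beside 41.1% of all genes, 60.4% of the further mitosis genes and 60.9% of the S-phase genes. Both words stood near the start in 22 of the 41 (53.7%), beside 2.40% of all genes. The CHR words were densest in the 25 bases after the start, with 27.9 per 100 windows of the set and 1.41 per 100 of all windows. CCAAT was densest in the 25 bases before it, at 30.2 per 100.

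The E2F word was rarer, in 6 of the 41 (14.6%) beside 5.93% of all genes and 10 of 23 S-phase genes (43.5%). No Capicua octamer was found in the 41 windows, and 2.85% of all genes held it. These matches describe letters in a short window and say nothing of binding. The 29 genes with a CHR near the start had a median activation ratio of 4.28 in WT, beside 4.49 for the 12 without it. In cKO the median with it was 4.72, higher by 0.51 than without it. *Pttg1*, which did not differ between days, held none of the words searched, but neither did *Birc5*, *Melk*, *Mybl2*, *Nuf2*, *Mad2l1* and *Ncaph*, all of which were higher on day 3.

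**Figure D2:**
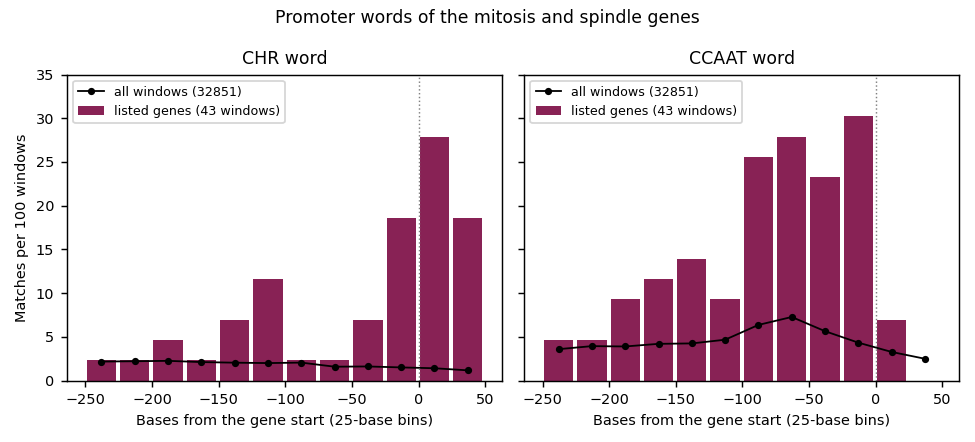
Matches of the CHR and CCAAT words per 100 promoter windows in bins of 25 bases along the distance from the gene start, as bars for 43 windows of the listed genes and as a line for all 32851 windows. In the set both words gather within about 100 bases of the start, the CHR reaching 27.9 and CCAAT 30.2.

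The cyclins and kinases that start mitosis included the largest differences between days. *Ccnb1*, which encodes cyclin B1, was at an FPKM of 1.68 in WT on day 0 and at 67.5 on day 3, with 0.638 and 54.8 in cKO. Its log2 ratios were 5.25 and 6.22, the latter the largest of the set in cKO. *Cdk1*, the kinase that cyclin B1 activates, went from 1.58 to 49.2 in WT and from 1.10 to 45.2 in cKO. *Nek2*, a kinase of centrosome separation, had FPKM of 0.428 and 20.9 in WT and of 1.12 and 18.8 in cKO, which gave the largest ratio of the set in WT (5.31) and a smaller one in cKO (3.95). All 9 genes of this group met the size rule upward in both genotypes, with medians of 4.87 and 4.98.

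Of the other members of this group, *Ccna2*, the cyclin of S phase and early mitosis, had the highest level, 106 in WT and 103 in cKO on day 3, with ratios of 4.62 and 5.19. *Ccnb2* had ratios of 4.64 and 4.98. *Aurka*, the centrosomal Aurora kinase, had 2.35 and 42.3 in WT and 1.63 and 31.1 in cKO. *Plk1*, the polo kinase that acts from mitotic entry to cytokinesis, had 1.33 and 42.0 in WT and 1.19 and 32.2 in cKO. *Cdc25c*, the phosphatase that removes inhibitory marks from Cdk1, was the least abundant of the set in all 4 libraries, with FPKM of 0.362 and 9.10 in WT and 0.119 and 7.34 in cKO. *Melk*, a kinase with peak levels in G2 and mitosis, had 0.423 and 15.2, and 0.577 and 14.8. Both transcription factors of the set were also higher on day 3. *Mybl2*, which encodes B-MYB, had 1.66 and 25.4 in WT and 1.64 and 22.7 in cKO, and *Foxm1* had 1.06 and 15.1, and 0.961 and 16.5.

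Among the genes of the APC/C and of sister separation, *Cdc20*, the mitotic activator of the ligase, had 2.22 and 59.2 in WT and 1.56 and 48.9 in cKO. *Ube2c*, its ubiquitin-conjugating enzyme, had 3.45 and 89.4, and 2.69 and 76.6. *Espl1*, which encodes separase, was among the scarcest, with 0.604 and 11.6 in WT and 0.231 and 10.2 in cKO. These 3 had ratios of 4.05 to 4.68 in WT and 4.78 to 4.97 in cKO. *Pttg1* encodes securin, the inhibitor that holds separase inactive until anaphase, and it stood apart from its target. Its FPKM was 14.3 and 15.4 in WT and 15.4 and 15.9 in cKO on days 0 and 3, so that all 4 libraries lay close together and the log2 ratios were 0.11 and 0.04. On day 0 its level was the third highest of the set in WT after those of *Smc4* and *Mki67*. Its locus in the files (chr11:43420088-43426248) covered no other RefSeq gene.

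The kinetochore and checkpoint genes all met the size rule upward on day 3, 11 of 11 in both genotypes, with medians of 4.27 and 4.59. *Bub1*, a checkpoint kinase at kinetochores, had FPKM of 0.818 and 28.9 in WT and of 0.484 and 27.3 in cKO. *Ttk*, the kinase also called MPS1 that starts the checkpoint signal, had 0.453 and 17.7, and 0.412 and 17.7. Checkpoint components *Bub1b* and *Mad2l1* had WT ratios of 4.27 and 3.70. The 4 genes of the NDC80 complex, which grips the microtubule, did not share a day 0 level: *Ndc80* and *Spc24* had 5.30 and 6.71 in WT, whereas *Nuf2* and *Spc25* had 1.38 and 1.62. On day 3 the WT levels were 48.3 for *Ndc80*, 30.6 for *Spc24*, 31.2 for *Nuf2* and 29.4 for *Spc25*.

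*Cenpa*, the histone H3 variant of centromeres, already stood at an FPKM of 13.5 (WT) and 16.4 (cKO) on day 0 and reached 57.1 and 54.1. Its ratios of 2.07 and 1.72 were the smallest of those that met the size rule. In cKO its call is lost when ratios are centred on the median gene (1.35). *Spc24* followed with 2.17 and 2.68. The kinetochore motor *Cenpe* and its partner *Cenpf* had larger ratios, 4.51 and 4.94 for *Cenpe* and 4.33 and 4.89 for *Cenpf*.

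The chromosomal passenger complex consists of the kinase Aurora B, the scaffold INCENP, borealin and survivin. *Aurkb* had FPKM of 1.005 and 41.3 in WT and 0.705 and 42.6 in cKO, with ratios of 5.23 and 5.73. *Birc5*, which encodes survivin, was at 4.13 and 141 in WT and at 3.14 and 128 in cKO. *Cdca8*, which encodes borealin, had 2.28 and 51.9, and 1.22 and 47.6. *Incenp* was at 8.29 and 70.9 in WT and at 8.37 and 69.9 in cKO, with smaller ratios of 3.08 and 3.05. The 4 subunits thus differed by a larger factor on day 0, from 1.005 to 8.29 in WT, than on day 3, from 41.3 to 141.

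The cytokinesis genes were all higher on day 3 as well. *Anln*, a scaffold of the contractile ring, had 1.14 and 14.2 in WT and 0.648 and 13.8 in cKO. *Racgap1* and *Kif23*, which together form the centralspindlin complex of the midzone, had WT ratios of 3.01 and 3.20 and cKO ratios of 3.65 and 3.09. *Ect2*, the exchange factor that centralspindlin recruits to activate RhoA, had ratios of 4.21 and 4.30. The midzone bundler *Prc1* had 3.83 and 3.81, and the midzone kinesin *Kif20a* had 4.25 and 4.37.

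Spindle motors and assembly factors were higher on day 3 in 7 of 7 cases in both genotypes, with medians of 4.34 and 4.81. *Kif11*, the kinesin that pushes the poles apart, had FPKM of 3.68 and 74.9 in WT and of 2.81 and 76.4 in cKO. *Kif15*, a motor that can take over part of its work, had 2.12 and 42.9, and 1.30 and 47.5. *Tpx2*, the activator of Aurora A on the spindle, had 2.11 and 51.7 in WT and 1.09 and 45.5 in cKO, and *Hmmr*, a spindle-associated protein, had 2.04 and 44.6, and 1.02 and 41.0. The microtubule depolymerase *Kif2c* had ratios of 4.48 and 4.52, and the chromosome-arm kinesin *Kif4* of 4.34 and 4.81. *Kif22*, the other chromosome-arm kinesin, had the smallest ratios of the group, 2.95 and 3.18, from a day 0 level of 5.21 in WT.

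Of the genes of chromosome structure, *Top2a*, the topoisomerase that untangles sister chromatids, was the most abundant of the set on day 3, at 290 in WT and 301 in cKO after 13.2 and 10.6. The condensin subunits were not alike. *Ncapg* had WT levels of 1.30 and 43.5 and *Ncaph* of 1.48 and 37.4, whereas *Ncapd2* had 6.72 and 62.5. The ATPase *Smc2*, shared by both condensins, had 7.69 and 83.8 in WT and 6.52 and 78.9 in cKO.

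*Smc4*, the partner of Smc2 in the condensin ring, was listed at 167 and 200 in WT and at 240 and 240 in cKO, with ratios of 0.26 and -0.0006. It was the most abundant of the set on day 0 in both genotypes, far above *Smc2*. Its locus (chr3:68892498-69044742) is 152245 bases long and also covers the RefSeq genes *Ift80*, *Trim59*, *Gm18588* and the microRNA genes *Mir15b* and *Mir16-2*. A separate entry for *Ift80* and *Trim59*, with the same coordinates under another locus identifier, had 47.5 and 42.4 in WT and 82.5 and 71.2 in cKO. How reads of this locus were divided is not shown by the files, so the *Smc4* values are uncertain. Loci of 22 members covered at least 1 other RefSeq gene, with which reads could be shared. The *Anln* locus, 333748 bases long, covered 24 others. That of *Kif20a* covered *Brd8* and *Cdc23* among others, and that of *Ncapg* covered *Lcorl* among others. Among the 28 members whose locus covered no other gene, 27 met the size rule upward in each genotype, *Pttg1* being the exception in both.

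**Figure D3:**
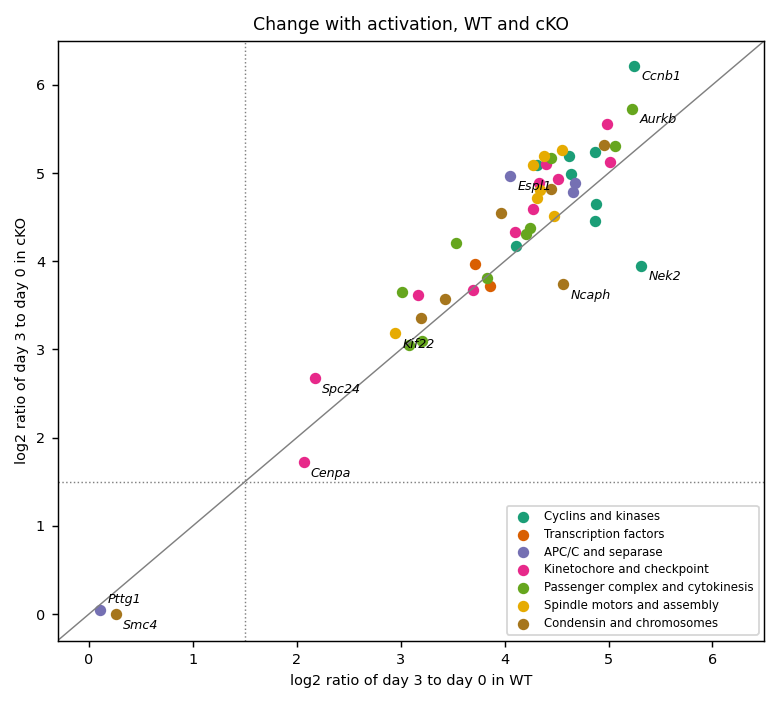
Log2 ratio of day 3 to day 0 in WT (x axis) and in cKO (y axis) for the 50 genes, coloured by role, with the line of equal ratios and dotted lines at the size threshold of 1.5. The points above the line number 38; *Ccnb1* lies farthest above it and *Nek2* farthest below.

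On day 0 the set was at a low level in both genotypes and lower in cKO for most genes. FPKM was lower in cKO in 43 of the 50. Of these 50, 37 had an FPKM of at least 1 in both libraries, 7 in WT alone, 1 in cKO alone and 5 (*Bub1*, *Ttk*, *Espl1*, *Cdc25c* and *Melk*) in neither. Over the 45 genes that passed the filter the median log2 ratio of cKO to WT was -0.35, and over all 50 it was -0.35 as well. The median of all 10910 genes was 0.00. Among the 37 at an FPKM of at least 1 in both libraries, 32 were below 0, beside 48.5% of the 10216 genes with the same levels. None of the 45 passed the size rule, which 0.486% of all genes passed upward and 1.81% downward.

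The largest day 0 differences came from scarce transcripts. *Ccnb1* was lowest in cKO relative to WT, at a ratio of -1.27 (0.638 and 1.68), which a pseudocount of 1 brings to -0.71. *Hmmr* followed at -0.94, *Tpx2* at -0.89 and *Cdca8* at -0.85. *Espl1* (-1.09) and *Cdc25c* (-1.08) were below the filter, at most 0.604 in either library. All 7 spindle motors and assembly factors were lower in cKO, with a median of -0.63, the lowest of the 7 role groups. *Mki67*, the antigen of cycling cells, had a ratio of -0.61, *Ccna2* also of -0.61, and *Top2a* of -0.31. The *Mki67* locus also covers *Ptpre* and the *Ccna2* locus *Exosc9*, with which reads could be shared. Without the members whose locus covers other RefSeq genes, the day 0 median was -0.39 over 24 genes.

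The remaining 7 genes were above WT in cKO on day 0. *Nek2* had a ratio of 1.21 on levels of 0.428 in WT and 1.12 in cKO, and *Ncaph* a ratio of 0.92 on 1.48 and 2.89. A pseudocount of 1 brings these to 0.57 and 0.65. Their loci overlap the predicted genes *Gm20585* and *Gm35347*, respectively, with which reads could be shared. *Ncaph* differed here from the other condensin I subunits, *Ncapg* (-0.25) and *Ncapd2* (-0.23). *Smc4* had 0.52, *Melk* 0.37 on levels below 1, *Cenpa* 0.27, *Pttg1* 0.11 and *Incenp* 0.01. On a common scale taken from the tables that pool both genotypes, 44 genes were lower in cKO.

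Markers of other cells moved with genotype on day 0. The summed FPKM of 12 macrophage markers was 321 in WT and 97.1 in cKO, with all 12 lower in cKO. That of 12 erythroid markers was 49.2 and 17.9, with all 9 that passed the filter lower, and that of 8 granulocyte progenitor markers was 72.2 and 32.9, with all 8 lower. None of these markers was at 0 in either day 0 library. B-cell markers went the other way, 25.3 in WT and 52.2 in cKO over 10 genes, all 10 higher, and the 8 T-cell markers summed to 1034 and 1273, *Cd4* itself being at 135 and 242. All 6 natural killer cell markers were lower in cKO (sums of 38.3 and 26.2), and 6 thymocyte and CD8 T-cell markers summed to 7.27 and 11.9. Of the latter only *Dntt* and *Cd8b1* passed the filter, both higher in cKO. Below the filter *Ptcra* (0.456 and 0.186) and *Rag1* (0.140 and 0.131) were lower in cKO, *Cd8a* (0.353 and 0.469) was higher and *Rag2* was at 0. Plasma cell markers summed to 25.8 and 25.6. The part of these cells in the day 0 levels of the mitosis genes was not tested. On day 3 the macrophage sum was 8.87 in WT and 5.02 in cKO, with 6 and 8 of the 12 at 0, and the granulocyte progenitor sum was 1.64 and 0.818, with 4 of the 8 at 0 in each. The erythroid sum was 34.5 and 20.6, with none at 0. Of the 5 erythroid markers that passed the filter, 3 were lower in cKO and 2, *Alas2* and *Hemgn*, were higher. B-cell markers summed to 50.2 and 61.7 on day 3, and of the 9 that passed the filter 6 were higher in cKO and 3 lower. The natural killer cell sum was 14.9 and 12.0, and the thymocyte and CD8 sum was 16.3 and 10.9. Of the 3 thymocyte and CD8 markers that passed the filter, *Cd8a* (8.36 and 3.59) and *Cd8b1* were lower in cKO. The third, *Dntt* (0.351 and 1.21), was higher, past the size rule at a ratio of 1.53.

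On day 3 the genotypes lay close together. All 50 ratios of cKO to WT were within 0.5 of 0, and 42 were within 0.2. Most other genes were also close, with quartiles of all genes at -0.23 and 0.14. The 5th and 95th percentiles of all genes were -0.66 and 0.62. The median of the set was -0.08, beside -0.05 for all 10895 genes, and 35 of 50 (70.0%) were below 0, beside 57.7% of all genes. None passed the size rule, beside 0.743% of all genes upward and 1.21% downward. When centred on the median gene, 29 of 50 were below 0 and the median was -0.03. The order of the 50 levels was nearly the same in both genotypes, with a Spearman coefficient across genes of 0.984 on day 3 and 0.935 on day 0. These coefficients describe genes of the same libraries and carry no test.

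The lowest day 3 ratio was that of *Aurka*, at -0.44 (42.3 in WT and 31.1 in cKO), followed by *Plk1* at -0.38, *Cdc25c* at -0.31, *Ccnb1* at -0.30, *Cdc20* at -0.28, *Kif23* at -0.26 and *Ube2c* at -0.22. Of the 9 cyclins and kinases, 8 were below 0 with a median of -0.16, and 6 after centring. *Ccnb2* was the exception at 0.12 (58.2 and 63.3). The chromosome structure genes had a median of 0.05, with 3 of 7 below 0, and the highest ratio of the set was that of *Smc4*, at 0.26. The kinetochore genes lay between -0.14 and 0.13, and *Ttk* was at 17.7 in both libraries. Without replicates it cannot be said whether ratios of this size exceed those between 2 libraries of the same genotype.

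FPKM in cKO was below WT on both days in 31 genes and above on both in 3, *Smc4*, *Ncaph* and *Pttg1*. The activation ratio was larger in cKO for 38 genes, by a median of 0.42 among these. Over all 50 the median difference was 0.29, with extremes of 0.97 for *Ccnb1* and -1.36 for *Nek2*. That difference is by construction the day 3 genotype ratio minus the day 0 one and rests on the same 4 libraries. For *Ccnb1*, for instance, it combines a day 0 ratio of -1.27 with a day 3 ratio of -0.30. It exceeded 0.5 in 16 genes, among them *Kif15* (0.81), *Hmmr* (0.81), *Cdca8* (0.73), *Nuf2* (0.71) and *Tpx2* (0.71), and was below -0.5 in *Nek2* and *Ncaph* only. With a pseudocount of 1 it was above 0 in 36 genes, exceeded 0.5 in 3 and had a median of 0.18 over all 50, so that its size depends on how weak day 0 levels are treated.

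**Figure D4:**
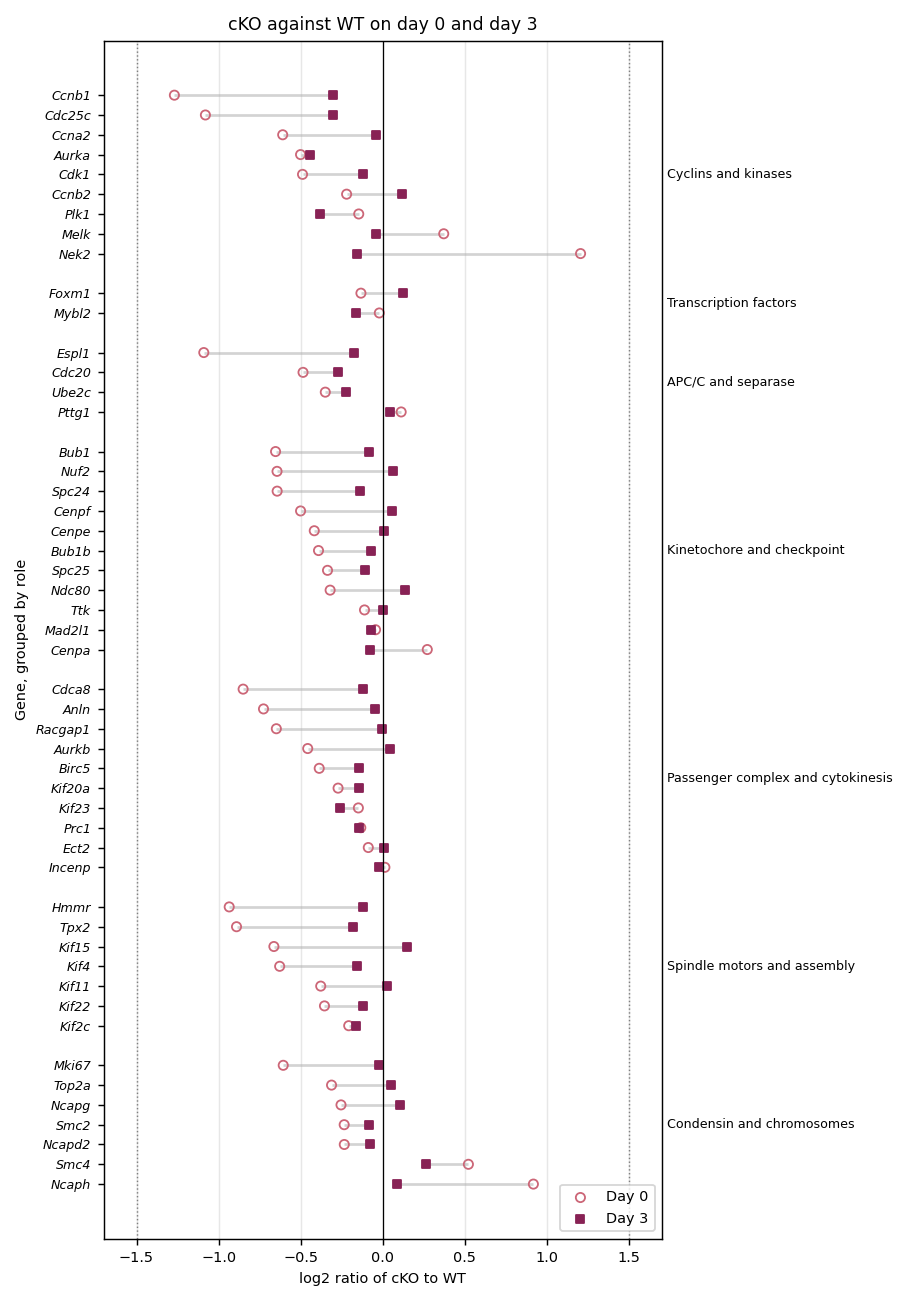
Log2 ratio of cKO to WT for each of the 50 genes, grouped by role, as open circles for day 0 and filled squares for day 3, with dotted lines at the size threshold of 1.5. Circles spread from -1.27 to 1.21 with 43 left of 0, whereas squares stay between -0.44 and 0.26.

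Other genes of mitosis and of DNA replication gave a wider frame. Of 66 further mitosis genes, 50 (WT) and 49 (cKO) met the size rule upward on day 3, none met it downward, and the medians were 2.63 and 2.86. The highest WT ratios were those of *Cenpm*, a kinetochore gene (5.33, from an FPKM of 0.134 to 9.31), *Cep55*, which acts in the final cut between daughter cells (5.13), and *Dlgap5*, a spindle assembly factor (4.97). The lowest were those of *Numa1*, a spindle pole protein that is nuclear in interphase (-0.46, from 70.3 to 51.0), *Mad1l1*, a checkpoint gene (0.17), and *Cenpq*, a kinetochore gene (0.38). Of 30 S-phase genes, 29 were higher in WT and 28 in cKO, with medians of 3.33 and 3.36. The highest of these, *Rrm2* of ribonucleotide reductase (4.79) and *Mcm10* of origin firing (4.75), were below the WT ratios of *Ccnb1*, *Nek2* and *Aurkb*.

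On day 0 both further lists also lay lower in cKO. The further mitosis genes had a median of -0.15, with 47 of 60 below 0, and the S-phase genes of -0.23, with 25 of 29 below 0. On day 3 the medians were -0.07 and -0.13, and 28 of 30 S-phase genes were below 0. No gene of these lists passed the size rule between genotypes on either day.

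**Figure D5:**
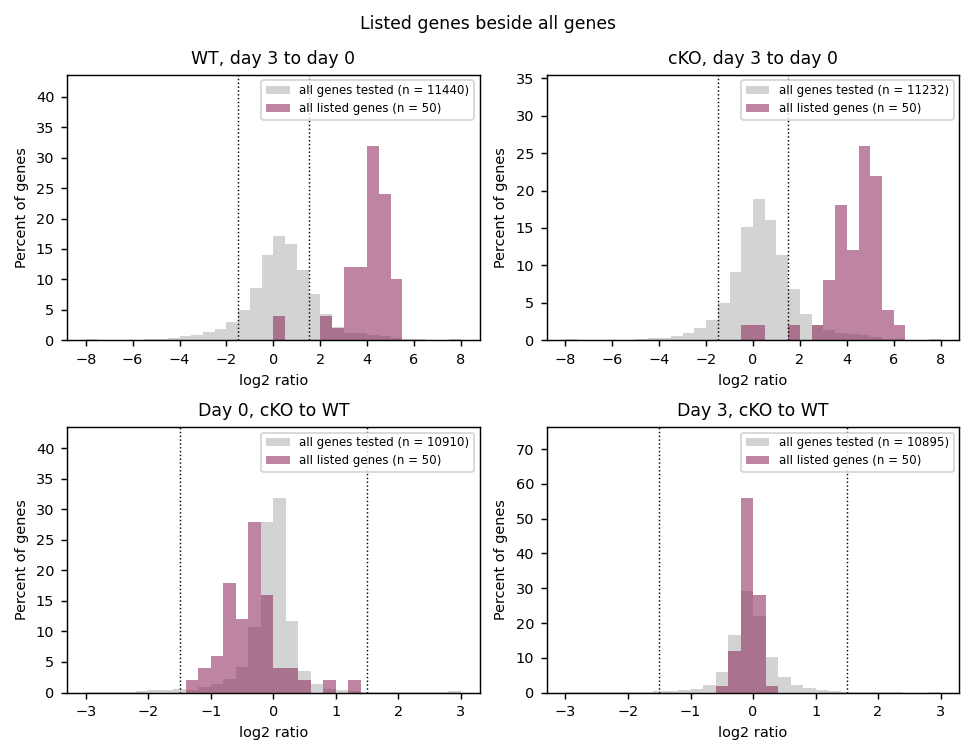
Distribution of log2 ratios as the percent of genes in each bin for all genes tested (grey) and the 50 listed genes (purple) in the 4 comparisons, with dotted lines at the size threshold of 1.5. The listed genes lie near medians of 4.31 and 4.57 for activation, are shifted to a median of -0.35 between genotypes on day 0, and lie near 0 on day 3.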

How the data were processed

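RNA was sequenced from 4 libraries of splenic CD4+ T cells, 1 for each genotype and day. The authors mapped reads with TopHat2 2.0.10 and estimated expression with Cufflinks 2.1.1; the submitters' notes name mm9 and CASAVA. They deposited FPKM values for 31171 loci, of which 7265 carry no gene name. Locus coordinates in the files fitted GRCm38 rather than mm9: 47 of the 50 genes had a locus end within 500 bases of a gene end in RefSeq GRCm38.p6, so coordinates are given as GRCm38. WT and cKO values came from 2 tables normalized separately, and 25 gene names that had become dates in the WT table were taken from the cKO table. The tables headed cKO against WT hold weighted means of libraries and gave only the common scale, which shifts cKO to WT ratios by -0.015 on day 0 and -0.017 on day 3 (log2). The deposited fold changes, P values and q values of the authors' own comparisons were not used, nor were 16 annotation tables.

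Ratios were log2((a + 0.1)/(b + 0.1)) of FPKM, which understates differences of weak genes, where either library of a pair reached an FPKM of 1. The size threshold was 1.5. With 1 library a group no test was made. All 50 members were named, and outside them the 3 highest and 3 lowest WT activation ratios of the further mitosis list and the 2 highest of the S-phase list. The members, lists and markers were chosen with earlier results of these data known. Promoters were matched by symbol in a RefSeq table; 6 role groups were gone through in order for a gene with a CHR in the 100 bases before the start, off chromosome 18, whose 100 bases did not reach into its annotated RefSeq gene, and the 3 groups that held one gave the promoters printed. The ratio calculation was tested on simulated data. Alternatives were other pseudocounts, filters, scales and thresholds. Python 3.11.15, numpy 2.4.6, pandas 2.3.3 and matplotlib 3.10.9 were used.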

Additional observations from a re-analysis of the deposited data

How the results depend on the processing

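Of 1731 ratios of single genes under the alternatives, 1728 kept their side of the size threshold. Many of these could not change, because a filter or the removal of members leaves the ratio of a gene as it was. Such ratios numbered 162 at an FPKM minimum of 5 and 200 without a minimum. They numbered 191 without loci of several names and 108 without loci that cover other RefSeq genes. Among all 1731 ratios the sign differed in 12, 9 under centring on the median gene and 3 on the common scale. All of these were at most 0.26 in size in the main setting, and none was past the threshold. Of 114 counts and medians, 6 moved, where a median had to shift by 0.585 on the log2 scale to count as moved. The genotype medians of -0.35 on day 0 and -0.08 on day 3 are smaller than that. For them a loss of the whole difference would not have counted as a move. A count of 47 genes higher in cKO on day 3 under centring, against 48, was also not counted as moved. With a pseudocount of 1 the median activation ratio was 3.73 in WT and 3.70 in cKO. At a size threshold of 1, 1 gene was higher (*Nek2*) and 1 lower (*Ccnb1*) in cKO on day 0, where none was at 1.5. Without the members whose locus covers other RefSeq genes, an alternative added after seeing the data, 27 were higher in WT and 27 in cKO because only 28 remained. Centring on the median gene shifts activation ratios by 0.40 in WT and 0.36 in cKO, and it took *Cenpa* in cKO to 1.35, below the threshold, and turned the ratios of *Pttg1* (-0.29 in WT and -0.32 in cKO) and *Smc4* in WT (-0.14) below 0. The day 0 median of cKO to WT ranged from -0.39 to -0.27 over the alternatives. No paired analysis was possible because each group has 1 library. The depth is unknown, so the counting error of scarce transcripts on day 0 cannot be given.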

Other observations

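The activation of other genes was also counted by the CHR and CCAAT words near their start. Of 166 other genes that held both words from 100 bases before to 50 after the start, 59 (35.5%) were higher on day 3 in WT by the size rule, beside 18.04% of the 8227 genes without both. In cKO the shares were 34.8% of 158 and 16.5% of 8084. These counts include the further mitosis genes and carry no test. Between genotypes on day 0 the 154 genes with both words had a median ratio of -0.02, beside 0.00 for the 7863 without, and on day 3 the medians were -0.04 and -0.05.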
